A study of Arabidopsis thaliana with 6 samples.

Results

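The Arabidopsis thaliana mutant line ago2a was set against the mutant line ago2c on 4 of the 6 arrays of the series, taken by their labels. Both lines are ago2 mutants in the Columbia-0 ecotype, and the labels do not say what the mutation is in either. The ago2a line had 1 array of irradiated and 1 of mock-treated seedlings, and so did ago2c. The wild type (WT, Columbia-0) had the same pair of arrays, and its values show where each line stood against it. Seedlings of the irradiated arrays were 14 days old and were exposed to a gamma dose of 200 Gy within 4 hours, delivered at a rate of 50 Gy per hour, and their RNA was measured 24 hours later. Mock-treated seedlings were of the same age and were not irradiated. Each array held RNA of whole seedlings, at least 10 per extraction, pooled from 3 independent batches. No condition therefore had a replicate array, and the p-values below measure the spread between these pooled samples after line and treatment are accounted for.

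ARGONAUTE proteins bind small RNAs and are guided by them to matching RNA. AGO2 is known in Arabidopsis for its part in defence against viruses and bacteria and for binding small RNAs that form near DNA double-strand breaks. Salicylic acid is the plant hormone of defence against pathogens that feed on living tissue, and it is made from isochorismate. N-hydroxypipecolic acid is a second defence signal that acts beside it, and both are switched on by shared transcription factors and answered by the pathogenesis-related (PR) genes.

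Signals are given as a percentage of the 75th percentile of their array, and differences as log2 values. Between 70.5% and 73.4% of probes were well above background on each array, and 0 were saturated. The ago2c arrays were the dimmest, with a 75th percentile signal of 1374 irradiated and 1417 mock, against 1688 and 2338 in ago2a. Of the 20171 loci tested below, 875 irradiated and 806 mock were not well above background in ago2c. These numbers were 506 and 288 in ago2a, and 243 and 336 in WT. AGO2 (AT1G31280) was not well above background on any ago2 array, at 0.696% irradiated and 0.289% mock in ago2a and 0.366% irradiated and 0.913% mock in ago2c, against 24.1% irradiated and 11.5% mock in WT. Both ago2a arrays lay on slide 1 with WT and both ago2c arrays on slide 2, so that line and slide cannot be told apart in any value below. The arrays also fell into 2 groups by how the further probes of a locus stood to its brightest probe. Irradiated ago2a and both ago2c arrays formed one group, and mock ago2a and both WT arrays the other. In the irradiated pair the further probes shifted over 2-fold in 0.445% of 5615 loci, but in the mock pair, whose arrays come from different groups, in 17.7%. The irradiated pair is therefore a comparison within an array group, and its values are given beside those of the mock pair throughout.

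The lines differed mainly in 1 direction. Of 20171 loci, 456 (2.26%) were at least 2-fold higher in ago2a than in ago2c in both treatments, with ago2a well above background on both arrays, and 12 (0.0595%) were at least 2-fold lower. These 468 loci are called parted below; the count is a description with no test. By pair, 743 loci (3.68%) were higher and 78 (0.387%) lower in irradiated ago2a than in irradiated ago2c, and 1163 (5.77%) were higher and 211 (1.05%) lower in mock ago2a than in mock ago2c. The irradiated and mock differences correlated across the 20171 loci with r = 0.60 (rho = 0.54), where loci are not independent and the 2 differences share slides. Another 45 loci were at least 2-fold apart in opposite directions, a count that, unlike those above, did not require the brighter line to be well above background. Of the 456 loci, 152 were at least 4-fold higher in both treatments, 52 at least 8-fold and 18 at least 16-fold. The mock difference was the larger in 339. Of the 456, 287 were well above background on both ago2c arrays, 56 on 1 and 113 on neither. The part of the dimmer ago2c arrays in this direction was not tested. In whole seedlings a lower signal from fewer cells of a type and from less RNA per cell cannot be told apart.

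In limma, fitted on all 6 arrays with line and treatment as terms, 41 loci (0.203%) were higher and 1 (0.00496%) was lower in ago2a at a Benjamini-Hochberg adjusted p of 0.05. Of these, 39 and 1 were among the parted loci, and 2 of the 41 were well above background on the ago2a arrays alone. At an unadjusted p of 0.05, 2099 loci passed, against 1009 expected, and 1273 of them were higher in ago2a. None passed with no filter on dim probes, with the array group as a block, without the mock ago2a array or without the irradiated ago2a array, where 4576, 943, 943 and 5028 loci had an unadjusted p under 0.05. The block fit and the fit without mock ago2a are the same fit, since array group varies within a line only between the ago2a arrays. A fit of the 4 ago2 arrays alone gave 221 higher and 7 lower. After normexp background correction 206 loci were parted higher and 5 lower.

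**Figure D1:**
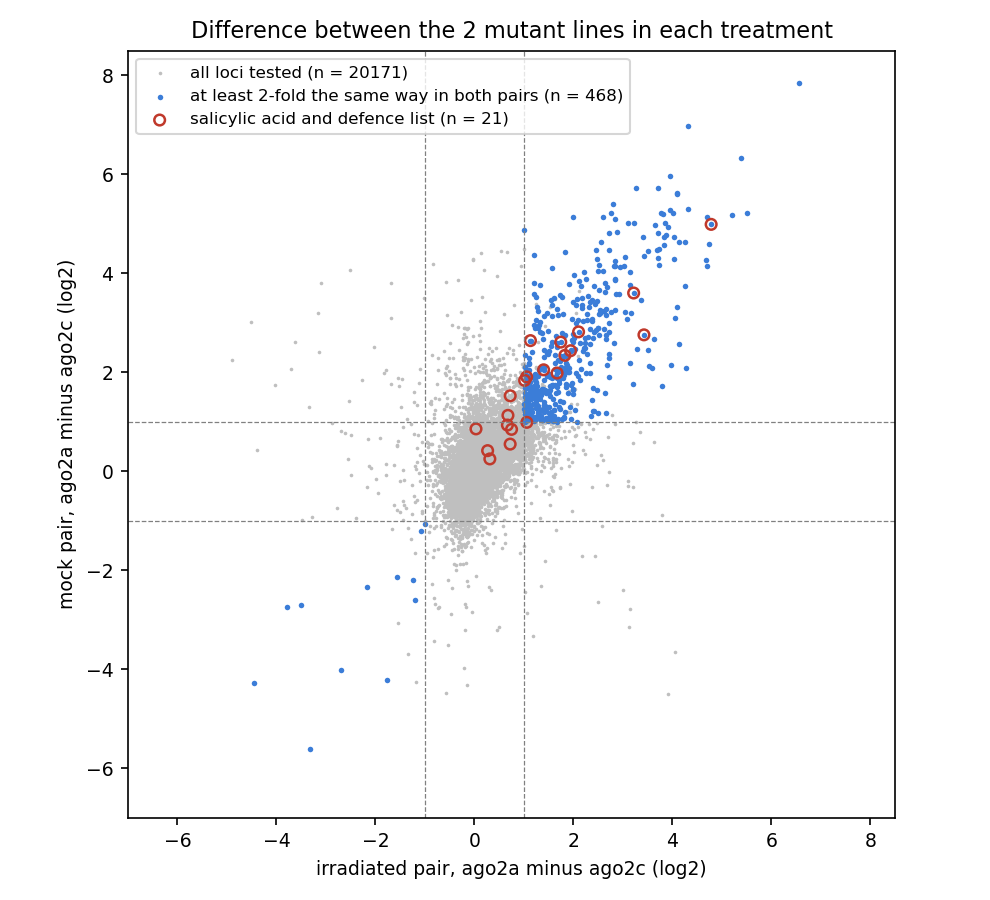
Difference between ago2a and ago2c in irradiated seedlings (horizontal axis) and mock-treated seedlings (vertical axis), in log2 units, with 1 point per locus. Grey points are all 20171 loci, blue points the 468 parted loci and red circles the 21 measured members of the salicylic acid and defence list. Dashed lines mark 2-fold, and most blue points lie at the upper right (456 of 468).

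WRKY59 (AT2G21900), a WRKY transcription factor gene had the highest lower bound among the parted loci. Its signal was 28.1% irradiated and 82.7% mock in ago2a, 0.297% and 0.357% in ago2c, and 15.2% and 32.0% in WT. Both ago2c arrays were not well above background, while all ago2a and WT arrays were. Against the dimmest signal that counts as well above background on the ago2c arrays, WRKY59 was at least 30.7-fold higher in ago2a (limma adjusted p = 0.032). This bound, and all bounds written below as "at least", were made this way. They use the mean of the log2 values of the irradiated and mock arrays of each line. They are therefore no bound for a single treatment. The fitted differences of loci with such a bound are not given, since they depend on how background was subtracted. The limma adjusted p-values of these loci come from the same fit and share this dependence. After normexp, 30 of the 41 loci called higher still passed the threshold.

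AT2G23270, AT1G13310 and ALD1, also past the limma threshold, had the same form, bright in ago2a and dim in ago2c. AT2G23270 had 20.8% irradiated and 58.3% mock in ago2a, 0.457% and 1.56% in ago2c, and 5.50% and 15.2% in WT, and was at least 22.2-fold higher in ago2a (limma adjusted p = 0.022). AT1G13310 had 15.6% irradiated and 47.7% mock in ago2a, 0.423% and 1.31% in ago2c, and 3.87% and 19.1% in WT, at least 17.42-fold higher (limma adjusted p = 0.032). ALD1 is described with the defence genes. In each of these loci WT lay between ago2a and ago2c in both treatments.

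AT3G28510 and AOX1D were well above background in ago2c too, on 1 and on both arrays. AT3G28510 had 98.9% irradiated and 28.6% mock in ago2a, 3.68% and 1.18% in ago2c, of which the mock value was not well above background, and 42.2% and 8.29% in WT. It was higher in ago2a by 4.67 ± 0.21 (log2, SE; limma adjusted p = 0.032), and after normexp by 2.81, no longer past the threshold. AOX1D (AT1G32350), an alternative oxidase of the mitochondrial electron transport chain, had 115.8% irradiated and 238% mock in ago2a, 4.51% and 12.4% in ago2c, and 46.7% and 123.4% in WT. It rose by 4.47 ± 0.15 in ago2a over ago2c (log2, SE; limma adjusted p = 0.022), by 3.68 after normexp, and in each treatment its ago2a value lay above that of WT, with ago2c lowest.

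MRD1 and AT5G03090 set ago2a apart from both other lines. MRD1 (AT1G53480), named for a lower transcript level in a methionine over-accumulating mutant, had 139% irradiated and 174% mock in ago2a, 5.37% and 9.89% in ago2c, and 3.29% and 5.42% in WT. Its difference was 4.42 ± 0.17 (log2, SE; limma adjusted p = 0.032), and 3.69 after normexp. AT5G03090 had 8.22% irradiated and 12.5% mock in ago2a but was not well above background on any ago2c or WT array, and was at least 6.48-fold higher in ago2a than in ago2c. It was 1 of 9 parted loci that were well above background in ago2a and on none of the ago2c and WT arrays, and that entered the fit only through the ago2a arrays, so no test is given for it.

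The remaining loci among the 15 named with ago2a higher did not pass limma's threshold. CRK37, a cysteine-rich receptor-like kinase gene, had 30.2% irradiated and 51.8% mock in ago2a, 0.727% and 0.645% in ago2c, and 7.68% and 32.0% in WT, at least 25.3-fold higher in ago2a (limma adjusted p = 0.070). ARI12, which encodes a RING-finger protein of the ARIADNE class of ubiquitin ligases, had 6.87% irradiated and 52.9% mock in ago2a and was dim on both ago2c arrays, at least 12.2-fold higher (limma adjusted p = 0.14). WRKY51 was bright on all arrays, with 54.4% irradiated and 162.9% mock in ago2a, 3.17% and 3.34% in ago2c, and 17.41% and 56.2% in WT (limma adjusted p = 0.068). PUM7, a gene of the Pumilio family of RNA-binding proteins, was at least 4.99-fold higher in ago2a, and CRK7 at least 7.46-fold. AT5G55150, with 67.1% irradiated and 546.2% mock in ago2a, 3.95% and 11.1% in ago2c, and 30.1% and 256.7% in WT, and AT2G38823, dim on 1 ago2c array, complete the set. The choice of these 15 by their smaller difference largely fixes that their ago2a and ago2c values did not overlap.

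**Figure D2:**
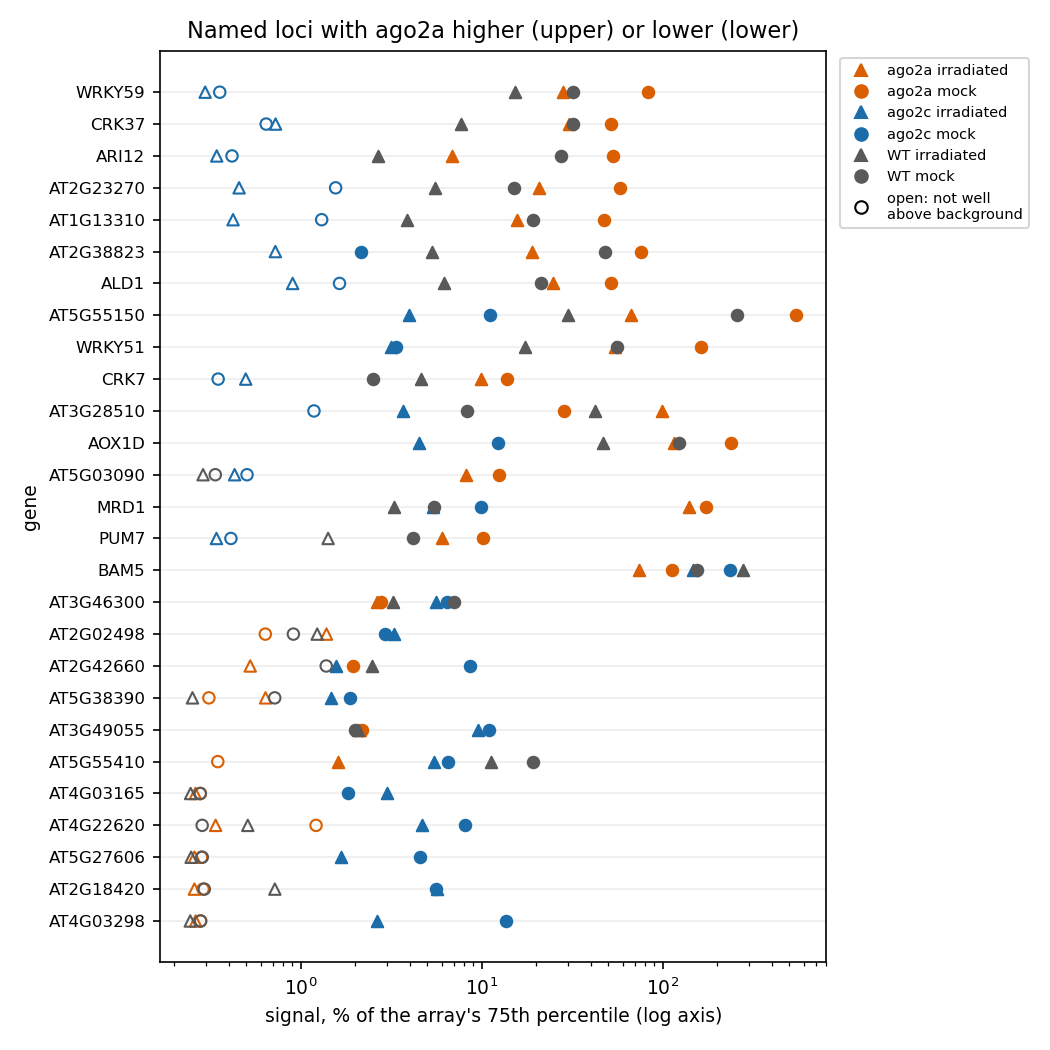
Signal of the 15 named loci with ago2a higher and the 12 with ago2a lower, as a percentage of the 75th percentile of each array on a log axis. Each symbol is 1 array: orange is ago2a, blue is ago2c and grey is WT, triangles are irradiated and circles mock, and open symbols were not well above background. The loci were chosen by this difference, so that in the upper 15 the ago2a symbols lie right of the ago2c symbols. In the lower 12 the ago2a symbols lie left of the ago2c symbols within each treatment.

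The salicylic acid and defence genes had the largest median difference of the lists with more than 1 measured member. This list, like the others, was written with earlier results of these data known, so its counts are a description. Of its 22 genes 21 were measured, and 12 of them (57.1%) were parted with ago2a higher, 0 with ago2a lower, against 2.26% of all loci. All 21 were higher in ago2a in both treatments, against 5912 of all 20171 loci, while 8368 of all loci were lower in both. The list's median difference was 1.06 in irradiated and 1.91 in mock-treated seedlings, beside -0.03 and -0.08 for all loci. Within the irradiated pair alone 13 of the 21 were at least 2-fold higher, against 3.68% of all loci. In limma 2 passed the threshold, ALD1 and FMO1, against 0.203% of all loci.

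ICS1 (AT1G74710), the isochorismate synthase, had 92.2% irradiated and 122.5% mock in ago2a, 27.5% and 20.0% in ago2c, and 39.5% and 70.2% in WT. PBS3 (AT5G13320), which joins isochorismate to glutamate on the way to salicylic acid, had 180.5% irradiated and 297.9% mock in ago2a, 19.4% and 24.5% in ago2c, and 48.8% and 130.7% in WT. EDS5 (AT4G39030), which exports the precursor from the chloroplast, had 43.3% irradiated and 101.4% mock in ago2a, 16.4% and 24.5% in ago2c, and 53.4% and 64.4% in WT. In each of these genes of salicylic acid synthesis and transport the lowest ago2a value exceeded the highest ago2c value. The share of all loci with this pattern was not counted. Their differences were 2.18 ± 0.34 for ICS1, 3.41 ± 0.29 for PBS3 and 1.73 ± 0.26 for EDS5 (log2, SE; limma adjusted p = 0.16, 0.058 and 0.15), none past the threshold.

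The enzymes of the pipecolic acid branch were the 2 members past the threshold. ALD1 (AT2G13810), the aminotransferase that starts pipecolic acid synthesis, had 24.9% irradiated and 52.1% mock in ago2a, was not well above background in ago2c at 0.903% and 1.64%, and had 6.23% and 21.2% in WT. It was at least 23.0-fold higher in ago2a (limma adjusted p = 0.032). FMO1 (AT1G19250), the monooxygenase that hydroxylates pipecolic acid, had 69.8% irradiated and 38.1% mock in ago2a, 6.49% and 5.63% in ago2c, and 36.0% and 27.4% in WT. It rose by 3.09 ± 0.20 in ago2a over ago2c (log2, SE; limma adjusted p = 0.045), a call lost with the mean of probes or under quantile normalization. Both ago2a values of FMO1 lay above both ago2c values, and WT lay between the lines.

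The transcription factor genes of the list lay the same way. CBP60G had 183.7% irradiated and 321.2% mock in ago2a, 47.7% and 59.2% in ago2c, and 103.6% and 189.7% in WT. SARD1 had 62.6% irradiated and 142.9% mock in ago2a, 17.63% and 28.1% in ago2c, and 40.2% and 71.0% in WT. WRKY38 had 14.2% irradiated and 14.96% mock in ago2a, 6.81% and 3.98% in ago2c, and 25.3% and 9.78% in WT. For CBP60G and SARD1 WT lay between the lines in both treatments, whereas irradiated WT exceeded both lines for WRKY38. WRKY70 and WRKY54, further WRKY regulators of this response, differed by 0.80 ± 0.11 and 0.91 ± 0.16 (log2, SE) and were not parted.

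Among upstream signalling genes the separation was smaller. EDS1, PAD4 and SAG101, whose lipase-like proteins pair up downstream of immune receptors, differed by 0.80 ± 0.13, 1.03 ± 0.15 and 0.64 ± 0.12 (log2, SE). PAD4 had 298.7% irradiated and 386.8% mock in ago2a, 143.3% and 194.5% in ago2c, and 246.7% and 248.8% in WT, just short of 2-fold in mock seedlings. NPR1, a salicylic acid receptor, differed by 0.28 ± 0.12, and ACD6, a membrane protein that promotes defence, by 0.34 ± 0.13. None of these passed limma's threshold. For the 9 members that were not parted, the ago2a value was still higher in both treatments.

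The output genes did not all stand the same way against WT. PAD3 (AT3G26830), the cytochrome P450 that completes camalexin, a defence compound, had 139.9% irradiated and 138.4% mock in ago2a, 32.5% and 19.6% in ago2c, and 84.9% and 29.1% in WT. PR2, a beta-glucanase, had 36.2% irradiated and 54.1% mock in ago2a, 16.5% and 8.66% in ago2c, and 33.8% and 14.0% in WT. PR1 (AT2G14610), the usual marker of the salicylic acid response, had 2.57% irradiated and 3.33% mock in ago2a, was not well above background in ago2c at 0.807% and 0.840%, and had 40.5% and 31.2% in WT. PR1 was thus at least 1.87-fold higher in ago2a than in ago2c, and both lines lay below WT, unlike ALD1, PBS3 or ICS1. PR5, a thaumatin-like protein, had 54.3% irradiated and 50.2% mock in ago2a, 53.1% and 27.7% in ago2c, and 51.0% and 30.8% in WT, and the lines overlapped. WAK1, a wall-associated kinase, was parted at 1.43 ± 0.23 (log2, SE), and NIMIN1, an NPR1-binding protein, was not at 1.13 ± 0.23.

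WT lay between ago2a and ago2c for 16 of the 21 genes in irradiated seedlings and for 19 in mock-treated ones, and for 16 in both. The list's median stood at 0.37 irradiated and 0.66 mock for ago2a minus WT, and at -0.78 irradiated and -0.86 mock for ago2c minus WT. These differences share the WT arrays, and the values of ago2a and WT come from the same slide. The summed signal of the list was 5601% irradiated and 6684% mock in ago2a, 3207% and 3184% in ago2c, and 4265% and 4359% in WT. A large part of each sum was WRKY70, which was not parted. WRKY70 alone had 2618% irradiated and 3201% mock in ago2a, 1556% and 1776% in ago2c, and 2097% and 2277% in WT.

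**Figure D3:**
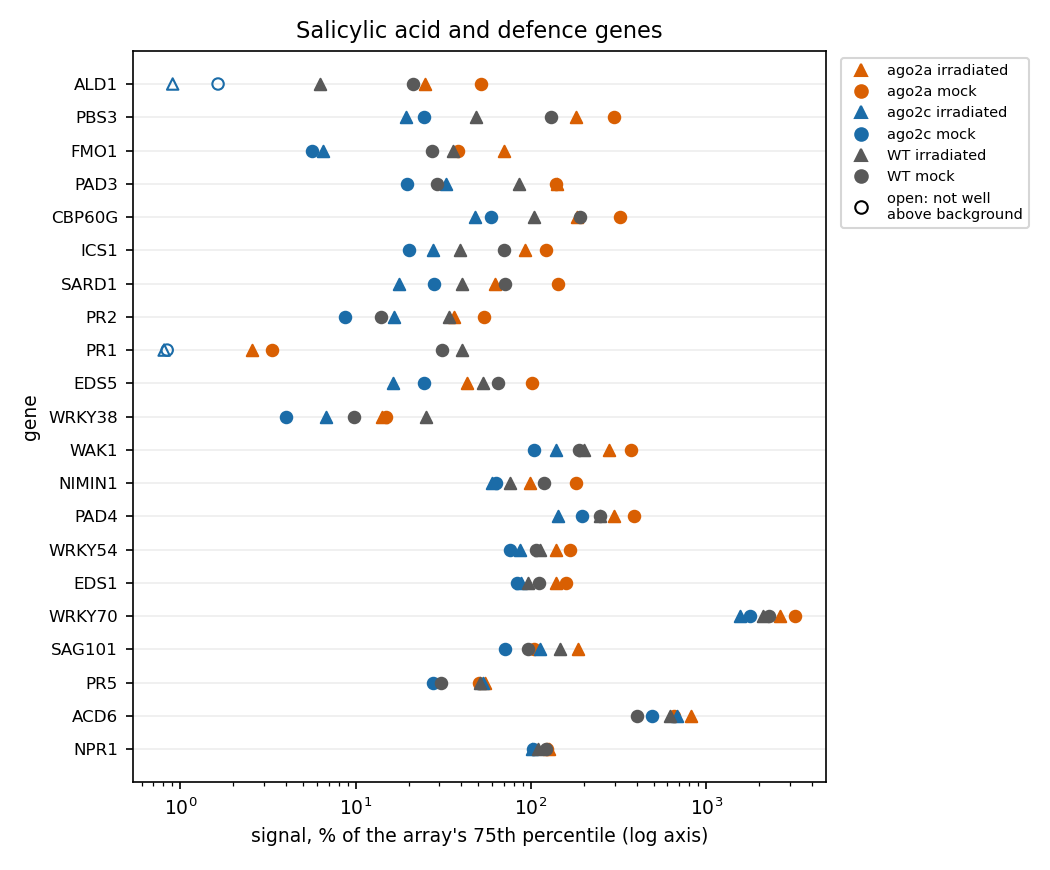
Signal of the 21 measured salicylic acid and defence genes as a percentage of the 75th percentile of each array, on a log axis, with 1 symbol per array as labelled. From ALD1 at the top to NPR1 at the bottom the genes are ordered by their mean difference. WT lies between ago2a and ago2c for 16 genes in both treatments, and PR1 stands out with both WT symbols right of the others.

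Gene families were read from the letters of the gene symbols, a grouping chosen after the values were seen, and 133 families had at least 10 measured loci. Of these 99 held no parted locus. The letters CRK stand for 2 families in the gene table, and the 2 measured CDPK-related kinases of that name were left out. Cysteine-rich receptor-like kinases (CRK) then had 8 of 28 parted higher (28.6%), against 2.26% of all loci. The tau class of glutathione S-transferases (GSTU), detoxifying enzymes, had 7 of 25 (28.0%), none past the limma threshold. GSTU9 differed by 2.89 and GSTU24 by 1.99 (log2). GSTU24 had 241.8% irradiated and 311.8% mock in ago2a, 55.1% and 86.2% in ago2c, and 132.5% and 130.9% in WT. Next came the UGT glycosyltransferases, which attach sugars to small molecules, with 12 of 50 (24.0%), and the receptor-like proteins (RLP) with 10 of 43 (23.3%). WRKY transcription factors had 9 of 57 (15.8%), of which WRKY59 and WRKY30 passed limma's threshold. None of these 5 families had a member parted lower.

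Their members varied widely. The CRK family held CRK37, CRK7 and CRK13, which were dim on both ago2c arrays, and CRK36, bright on all, with 87.9% irradiated and 266.9% mock in ago2a, 6.77% and 11.97% in ago2c, and 26.01% and 131.7% in WT. WRKY30 differed by 3.84 in irradiated and 5.01 in mock seedlings (limma adjusted p = 0.049), while WRKY75 differed by 1.47 and 1.29 (limma adjusted p = 0.23). Among the parted UGT genes bright on all 4 ago2 arrays the mean difference ran from 1.09 for UGT87A2 to 2.70 for UGT73C6, while UGT73D1, dim on both ago2c arrays, was at least 1.70-fold higher in ago2a. RLP23, the receptor of a microbial peptide, was at least 4.59-fold higher in ago2a.

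The heat shock and chaperone list had the next largest share of parted members among those lists. Of 16 measured heat shock and chaperone genes 5 (31.2%) were parted higher in ago2a, against 2.26% of all loci. All 5 encode small heat shock proteins, which bind unfolding proteins: HSP17.4, HSP17.6A, HSP17.6II, HSP17.6C and HSP23.6. HSP23.6 (AT4G25200) had 20.9% irradiated and 92.3% mock in ago2a, 5.82% and 20.3% in ago2c, and 6.42% and 25.5% in WT. It rose by 2.02 ± 0.13 in ago2a over ago2c (log2, SE; limma adjusted p = 0.046), a call lost with the mean of probes or under quantile normalization. HSP17.6C had 33.2% irradiated and 45.8% mock in ago2a, 5.96% and 14.7% in ago2c, and 10.6% and 50.2% in WT, so that mock WT lay near mock ago2a but irradiated WT near irradiated ago2c. HSP101, HSP70 and HSP90.1, larger chaperones, differed by 0.06 ± 0.18, 0.40 ± 0.18 and 0.49 ± 0.11 (log2, SE) and were not parted. The list's median was 0.57 irradiated and 0.31 mock.

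Other lists held 1 or 2 parted members, all higher in ago2a. Against 2.26% of all loci, 1 or 2 members of such short lists are given as single genes and not as a result about the list. MAF5 and MAF4, neighbouring MADS-box genes that repress flowering, were the 2 of 23 measured flowering genes. MAF5 (AT5G65080) had 28.0% irradiated and 29.98% mock in ago2a, 4.24% and 1.06% in ago2c, the mock value dim, and 13.3% and 15.2% in WT, while the list's median was -0.15. MAF5 differed by 3.77 ± 0.61 (log2, SE; limma adjusted p = 0.18) but by 1.88 on a probe well above background on all 6 arrays. HRE2 (AT2G47520), a transcription factor gene induced by low oxygen, was the only parted one of 16 hypoxia genes, with 4.88% irradiated and 16.5% mock in ago2a, 1.39% and 4.28% in ago2c, the irradiated value dim, and 5.09% and 14.2% in WT. It rose by 1.88 ± 0.12 in ago2a over ago2c (log2, SE; limma adjusted p = 0.046), a call lost with the mean of probes and after normexp, where the difference was 0.82.

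The jasmonate and wounding list had 2 of 24 parted, the ethylene response factor ERF1 at 1.38 ± 0.37 and NATA1, which acetylates ornithine, at 1.42 ± 0.40 (log2, SE). The senescence list had 2 of 21, SAG13 at 2.27 ± 0.49 and SAG21 at 1.44 ± 0.20. The phosphate list had 2 of 21, the phosphate transporter PHT1;1 at 1.204 ± 0.63 and WRKY75 at 1.38 ± 0.26. PHT1;1 was at 355.6% irradiated and 985.8% mock in ago2a, 145% and 455.6% in ago2c, and 1031% and 663.2% in WT, so that the lines overlapped across treatments though not within them. The clock list had 1 of 20, RVE8, a MYB-like transcription factor, at 1.55 ± 0.27. The seed storage list had 1 measured member of 15, EM6, dim in ago2c and at least 1.53-fold higher in ago2a but at -0.12 (log2) after normexp. None of these passed limma's threshold.

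No member was parted in 9 lists. These were small RNA pathway (27 measured), damage response (18), abscisic acid, drought and cold (27), iron (21), sulphur (15), glucosinolates (29), flavonoids (20) and copper microRNA targets (11), with medians between -0.13 and 0.35, and photosynthesis, described next. The 14 measured genes among the 10 on each side of AGO2 held none either. The summed signal of the damage response list, genes induced after DNA breaks, was 7462% irradiated and 1141% mock in ago2a, 7127% and 1331% in ago2c, and 6867% and 1292% in WT. AGO3, the close relative next to AGO2, was at 10.9% irradiated and 10.6% mock in ago2a, 8.66% and 11.4% in ago2c, and 14.8% and 16.3% in WT. Its difference was 0.11 ± 0.15 (log2, SE; limma adjusted p = 0.69) and turned negative under normexp, quantile, median scaling and the authors' values.

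The summed signals of root and of green tissue markers also lay apart between the lines, with no member past limma's threshold. Of 30 measured root markers 23 were higher in ago2a in both treatments, against 5912 of all 20171 loci. Their median was 0.70 irradiated and 0.64 mock, and 2 were parted, XTH14, a wall-modifying enzyme, and RSL4, a root hair regulator. The summed root signal was 4537% irradiated and 7632% mock in ago2a, 2742% and 5258% in ago2c, and 8376% and 6267% in WT. Most of each sum came from 1 gene, PYK10 (AT3G09260), which was not parted. PYK10 had 3849% irradiated and 5943% mock in ago2a, 2264% and 4129% in ago2c, and 6851% and 4720% in WT. Of 33 nuclear photosynthesis genes 30 were lower in ago2a in both treatments, against 8368 of all 20171 loci. Their median was -0.25 irradiated and -0.53 mock, and 0 were parted. That median was -0.38 over both treatments and -0.01 after quantile normalization. Of the 30 root markers, 5 irradiated and 2 mock were not well above background in ago2a, 6 and 4 in ago2c, and 2 and 1 in WT. All 33 photosynthesis genes were well above background on every array. The part of these tissue markers in the differences above was not tested.

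**Figure D4:**
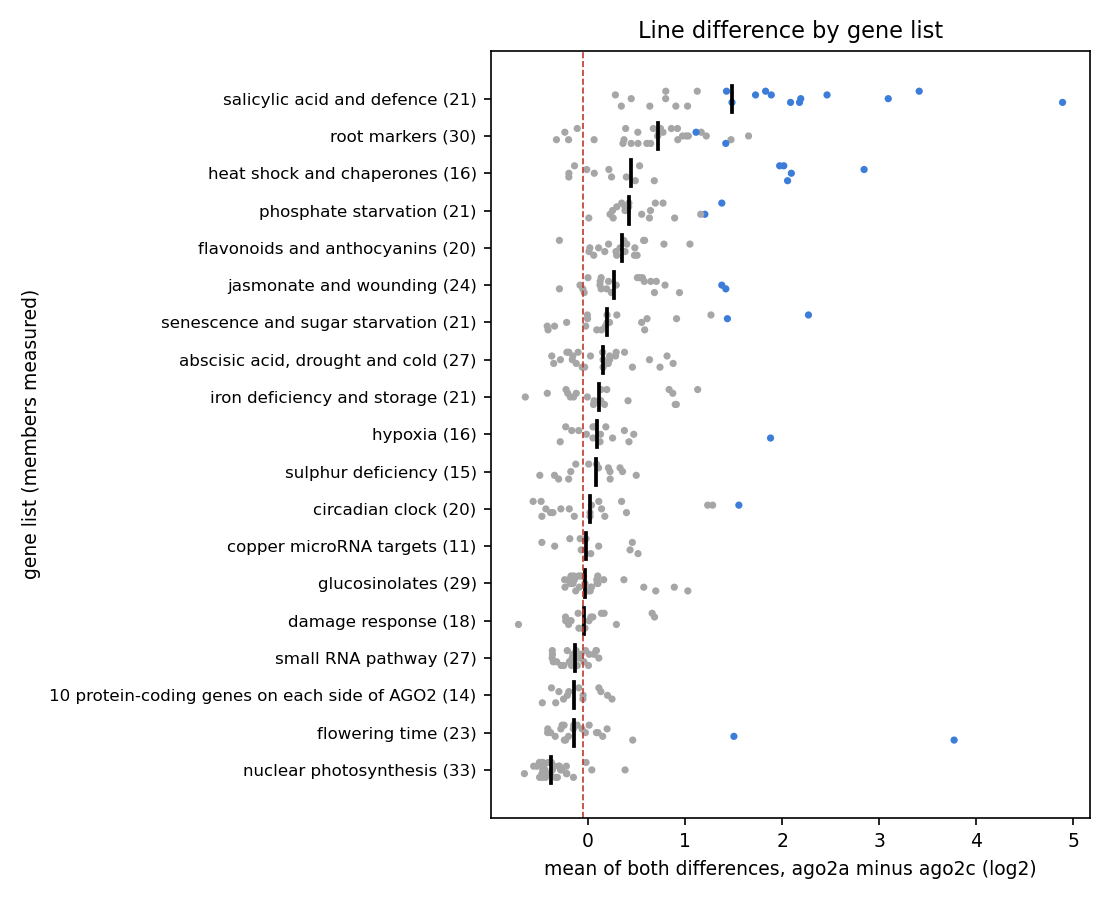
Mean of the irradiated and mock difference, ago2a minus ago2c in log2 units, for each measured member of 19 gene lists (1 point per gene). Blue points are parted genes, black bars the list medians and the dashed red line the median of all loci at -0.05. The salicylic acid and defence list has its median at 1.48, and the photosynthesis list at the other end has a median of -0.38.

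The 12 loci lower in ago2a were of another kind. On 7 of them both ago2c arrays were well above background while no ago2a or WT array was: AT4G03298, AT2G18420, AT5G27606, AT4G22620, AT4G03165, AT5G38390 and AT2G02498. AT2G18420 had 0.259% irradiated and 0.289% mock in ago2a, 5.64% and 5.60% in ago2c, and 0.720% and 0.294% in WT, and ago2c was at least 4.21-fold higher than ago2a. AT4G03298 had 0.263% irradiated and 0.280% mock in ago2a, 2.64% and 13.7% in ago2c, and 0.245% and 0.280% in WT, with ago2c at least 4.50-fold higher. These 7 loci entered the fit only through the ago2c arrays, so no test is given for them.

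AT3G49055 was the 1 locus that passed limma's threshold as lower. It had 2.14% irradiated and 2.17% mock in ago2a, 9.56% and 10.9% in ago2c, and 2.08% and 2.00% in WT, all well above background. It fell by 2.25 ± 0.12 in ago2a against ago2c (log2, SE; limma adjusted p = 0.035), with ago2a and WT close together and ago2c apart, and by 1.49 after normexp. BAM5 (AT4G15210), a beta-amylase that degrades starch, lay at the 2-fold limit with 73.6% irradiated and 112.8% mock in ago2a, 147.6% and 234.8% in ago2c, and 277.5% and 154.7% in WT. AT5G55410 was lower in ago2a than in WT as well, with 1.60% irradiated and 0.348% mock in ago2a, the mock value dim, 5.47% and 6.47% in ago2c, and 11.2% and 19.2% in WT. AT2G42660 and AT3G46300 complete the 12.

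Set against WT, the 456 loci that were higher in ago2a lay further from WT in ago2c than in ago2a at the median. Their median difference from WT was 0.51 irradiated and 0.74 mock for ago2a, and -1.46 irradiated and -1.35 mock for ago2c. In both treatments ago2a was at least 2-fold above WT for 69 loci, and ago2c at least 2-fold below WT for 224. WT lay closer to ago2a, at less than 0.5 of the distance between the lines, for 277 loci in irradiated and 347 in mock-treated seedlings, and closer to ago2c for 98 and 104. For the other 81 irradiated and 5 mock it lay at least 0.5 of that distance from both lines. In both treatments it was closer to ago2a for 218 and closer to ago2c for 26. Among the 287 loci well above background on all 4 ago2 arrays these counts were 127 and 18. The choice of the 456 loci fixes that ago2a lies above ago2c, so only the place of WT is free in these counts. WT shares slide 1 with ago2a, and the mock arrays of WT and ago2a share an array group as well.

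**Figure D5:**
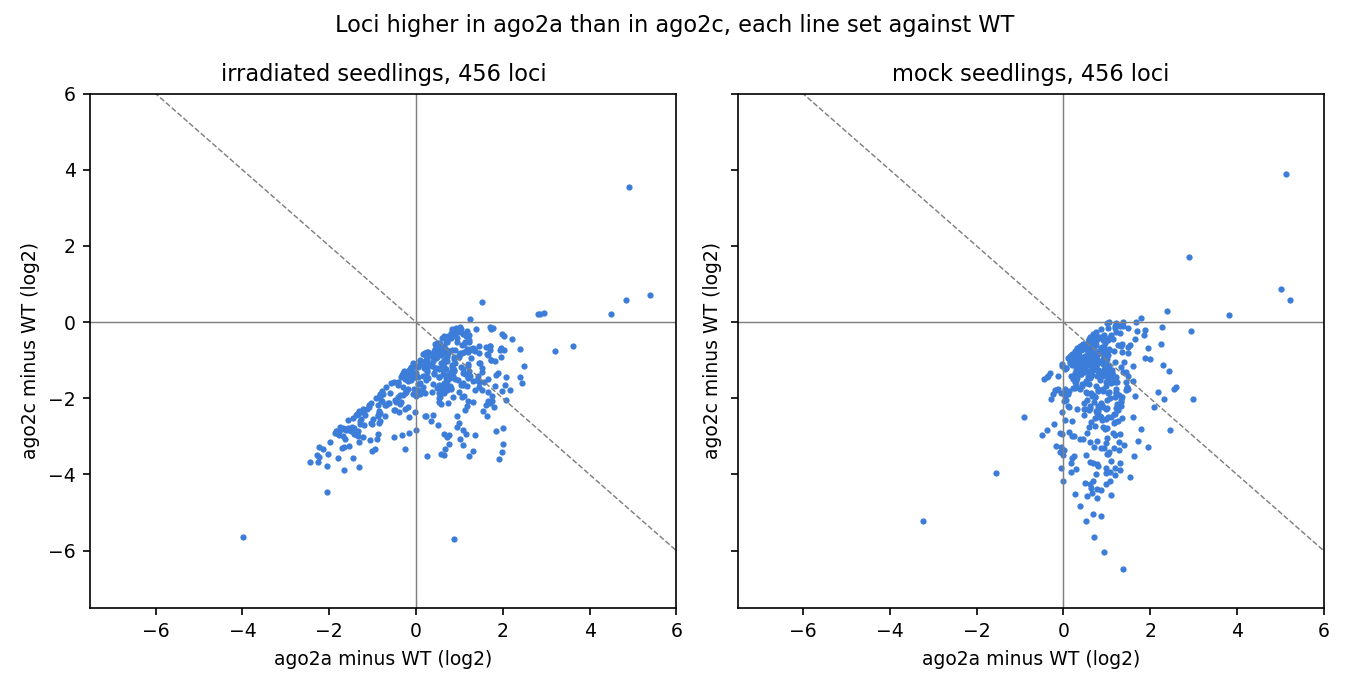
Difference from WT of ago2a (horizontal axis) and of ago2c (vertical axis) in log2 units for the 456 loci higher in ago2a, in irradiated (left) and mock-treated (right) seedlings. On the dashed line WT lies midway between the lines; below it WT is closer to ago2a. The medians are 0.51 irradiated and 0.74 mock on the horizontal axis and -1.46 irradiated and -1.35 mock on the vertical axis.

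The parted loci were spread over the genome, at 2.33%, 2.53%, 2.19%, 2.33% and 2.28% of the measured loci on chromosomes 1 to 5, beside 2.32% overall. In the gene order of the annotation, 78 of them formed 36 runs of direct neighbours. The longest was a run of 5, AT5G52720, AT5G52730, AT5G52740, AT5G52750 and AT5G52760, all higher in ago2a. AT5G52760 had 152% irradiated and 330.5% mock in ago2a, 33.6% and 32.1% in ago2c, and 91.7% and 180.4% in WT. Runs of 3 were CRK36, CRK37 and CRK38, the lectin receptor kinases LECRKA4.1, LECRKA4.2 and LECRKA4.3, and AT2G36780 with the glycosyltransferase genes UGT73C6 and DOGT1. LECRKA4.2 rose by 2.76 ± 0.14 in ago2a over ago2c (log2, SE; limma adjusted p = 0.032). LECRKA4.1 was higher by 1.78, and LECRKA4.3, dim on both ago2c arrays, was at least 3.39-fold higher. In 1 run the directions differed, with AT4G03298 lower in ago2a and Tic20-IV, a subunit of the chloroplast import machinery, higher. Several runs hold related genes, whose probes may bind each other's transcripts; this was not tested.

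Further probes of the parted loci were read on the same arrays, from the same RNA. Of the parted loci 66 had another probe well above background on both arrays of the brighter line. In 64 all such probes pointed the same way in both treatments, in 57 by at least 2-fold. Probes entered this count through the brighter line, and the matching share over all loci was not counted. The other parted loci had no such probe. Just inside the 2-fold limit lay AT4G15390 and AT1G30755, each with a smaller difference of 1.00, and HR3 at 1.005. Just outside lay LHT1 at 0.997, ABCA3 at 0.998 and GSTF6 at 0.999.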

How the data were processed

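Per the labels' protocols, Cy3-labelled RNA was hybridised to 1-colour Agilent arrays. The intensity used is the processed, background-corrected signal of the deposited scanner files, for which the file headers name Feature Extraction 11.0.1.1. The authors' deposited series matrix, a linear ratio of unstated scale, served as an alternative. Signals were scaled to the 75th percentile of each array and taken to log2. Of 43550 probes kept (53 with outlier flags left out), 34309 could be assigned by accession to 25388 loci (annotation table of TAIR10.1); 9241 had no match. Probes well above background on at least 2 of 6 arrays entered, the brightest standing for its locus (20171 loci, 6934 of 25388 with several probes). limma 3.58.1 in R 4.3.3 (lmFit, eBayes; line and treatment; 2 residual degrees of freedom) was checked on simulated data. Signal over background and the number of arrays limit the precision.

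Named loci were the 15 highest and up to 15 lowest parted loci by their smaller difference whose further probes pointed the same way, the 5 largest past the limma threshold each way, up to 4 parted members per list, AGO2, AGO3 and parted neighbours; list and family members are also given as examples chosen after their values were seen. Loci and lists were chosen with earlier results of these data known. Alternatives were other background correction, scaling, probe summary, filter, variance model, thresholds and arrays. A sequence or coordinate is not given here. The damage response list is reported by its counts and sums only.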

Additional observations from a re-analysis of the deposited data

Results flagged for a closer look

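In 2 gene lists the median difference between ago2a and ago2c had opposite signs in the treatments, and the difference between the treatments was not tested. The damage response list (18 measured genes) had a median of 0.17 in irradiated and -0.18 in mock-treated seedlings (log2, ago2a minus ago2c). The copper microRNA targets (11 measured genes), transcripts cut by microRNAs made when copper is short, had a median of -0.13 in irradiated and 0.12 in mock-treated seedlings. Neither list had a parted member. The irradiated pair lies within an array group and the mock pair does not, and the part of the array group in these signs was not tested.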

How the results depend on the processing

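The arrays of the lines were paired by treatment, which is a term of the fit. Pairing by replicate was not possible, because the labels give no replicate numbers and each condition has 1 array. Slide could not be fitted as a block for this contrast, since ago2a and ago2c lie on different slides. The number of loci past limma's threshold (41 higher, 1 lower) depended strongly on the settings. It was 115 higher and 3 lower after normexp, 24 higher after quantile normalization, 191 and 6 under median scaling, 187 and 6 with the authors' values, 25 higher with the mean of probes, 85 higher when all 6 arrays had to be well above background, 221 and 7 with the 4 ago2 arrays only, and 170 higher with a trended eBayes. It was 0 and 0 in limma with no filter on dim probes (4576 loci at an unadjusted p of 0.05) and with array group as a block (943). Leaving out 1 array gave 0 to 221 higher and 0 to 8 lower: 0 and 0 without mock ago2a (943 unadjusted) or without irradiated ago2a (5028 unadjusted), 17 and 0 without mock ago2c, 179 and 8 without irradiated ago2c, and 221 and 7 without either WT array. The block fit is the same fit as leaving out mock ago2a, and leaving out either WT array is the same fit as the 4 ago2 arrays. Median scaling kept 41 of the 41 higher loci, quantile normalization 24 and normexp 30.

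Parted loci (456 higher, 12 lower) numbered 206 and 5 after normexp (202 and 4 shared), 287 and 3 with all 6 arrays or all 4 ago2 arrays well above background, 222 and 7 at 3-fold, and 1053 and 52 at 1.5-fold. The irradiated pair alone gave 743 and 78, and the mock pair alone 1163 and 211. Scaling to the median moved the median difference of all loci to -0.18 from -0.05, with 381 parted higher and 16 lower. Of 1103 values of named genes under the alternatives 1095 kept their sign, and of 179 list medians 159. Most named genes were chosen for a large difference on these same arrays, which largely fixes that their sign is kept. The salicylic acid and defence median ran from 1.06 (irradiated pair) to 1.91 (mock pair), with 1.09 after normexp.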

Other observations

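Among probes with no locus in the gene table, 4182 were measured, of which 61 parted the lines with ago2a higher and 20 with ago2a lower. Of the 20171 loci, 456 (2.26%) were parted higher and 12 (0.0595%) lower. The lower direction thus had a larger share among these probes than among the loci. Their genes are not named here.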
